A study of Mus musculus with 6 samples.

Results

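The regulator of G protein signalling (RGS) family was followed through 8 genes in mouse lung ILC2 (group 2 innate lymphoid cells): Rgs1, Rgs2, Rgs3, Rgs10, Rgs14, Rgs16, Rgs18 and Rgs19. They were taken by symbol as the Rgs genes of lymphocytes and make up 8 of the 23183 genes listed in each library. ILC2 carry no antigen receptor and respond to alarm cytokines of the tissue by releasing type 2 cytokines. Primary cells of wild-type genotype were kept in culture for 24 h with interleukins 2, 7 and 33, each at 10 ng/ml, in both groups. The isotype group received a control antibody (IgG2b, 3 libraries), and the other group received DTA-1, which binds and activates the costimulatory receptor GITR (3 libraries). The labels give neither mouse strain, age nor sex, nor whether each library had its own animal or culture. The p-values given here rest on the spread among these samples alone, and that spread may be technical.

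RGS proteins switch off heterotrimeric G proteins. A receptor with 7 transmembrane helices loads the G alpha subunit with GTP, and the RGS domain speeds the return of that subunit to its GDP form, which ends signalling by the alpha subunit and by the beta-gamma pair. In lymphocytes most chemokine and sphingosine 1-phosphate receptors signal through Gi proteins, and RGS proteins limit how long a cell responds to such cues. By sequence, RGS1, RGS2, RGS3, RGS16 and RGS18 belong to the R4 subfamily, RGS10 and RGS14 to the R12 subfamily and RGS19 to the RZ subfamily.

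Of the 8 genes, Rgs16 was the one whose groups did not overlap, its DTA-1 libraries all lying above its isotype libraries; groups did not overlap for 21.6% of the 10501 genes tested (11.2% higher with DTA-1, 10.5% lower). Its mean was 3.79 ± 0.459 FPKM (fragments per kilobase of transcript, scaled to library size; SD, n = 3) with the isotype and 8.50 ± 1.04 FPKM with DTA-1, a ratio of 2.24. Rgs18 came next, with means of 6.23 ± 2.92 and 10.3 ± 2.01 FPKM and overlapping groups. The most abundant member, Rgs1, measured 284 ± 117 and 205 ± 42.7 FPKM. By limma at an adjusted p under 0.05, 0 of the 8 members passed, against 0.0381% of all tested genes (0.0286% higher, 0.00952% lower).

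The promoter of Rgs16 is shown because it belongs to the member with separated groups, and that of Rgs2 as an R4 gene whose groups overlapped. Each run covers the 250 bases before the RefSeq start (GRCm38.p6), read 5′ to 3′ on the gene's strand. Capitals mark matches on either strand to a loose form of the NF-kB site (GGG, then any 5 bases, then CC) and to TGACG, the core of the cAMP response element.
Rgs16, chr1:153740103-153740352, plus strand: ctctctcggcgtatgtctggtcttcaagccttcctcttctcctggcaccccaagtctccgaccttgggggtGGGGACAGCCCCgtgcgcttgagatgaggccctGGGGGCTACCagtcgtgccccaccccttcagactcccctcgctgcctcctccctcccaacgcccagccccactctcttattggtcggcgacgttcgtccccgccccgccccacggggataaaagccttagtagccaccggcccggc
Rgs2, chr1:144004150-144004399, minus strand: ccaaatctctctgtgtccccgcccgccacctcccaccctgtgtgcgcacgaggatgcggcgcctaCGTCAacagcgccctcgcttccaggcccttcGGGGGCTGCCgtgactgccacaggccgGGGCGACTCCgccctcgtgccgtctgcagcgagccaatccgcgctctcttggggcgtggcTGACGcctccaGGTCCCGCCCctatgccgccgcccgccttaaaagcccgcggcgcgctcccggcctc

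The Rgs16 window held 4 matches to the NF-kB form, of which 3 overlap in a single stretch, and no match to TGACG. Rgs2 had 3 separate matches to the NF-kB form and 2 to TGACG. Such matches are common: the NF-kB form occurred in 45.8% and TGACG in 17.8% of the 32851 RefSeq promoter windows of the same length. The full cAMP element TGACGTCA, which contains TGACG and occurs in 1.55% of windows, and the AP-1 site TGANTCA, in 6.75%, were in neither promoter. A match describes letters in the window and not a bound site. The RefSeq promoter table held 5 of the 8 members: Rgs2, Rgs3, Rgs10, Rgs16 and Rgs19. Rgs10 had 5 matches to the NF-kB form, some overlapping, which is more than Rgs16. The Rgs19 windows had 1, 2 and 1, and each Rgs3 window had 0. None of these windows held TGACG.

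The labelled cell type was checked against marker genes. All 14 fixed ILC2 markers reached 1 FPKM in at least 3 libraries, while 5 of 57 listed markers of 12 other cell types did so (Cd3g, Cd79b, Cd68, Epcam and Pecam1). Pecam1 was the highest of these with a mean of 31.4 FPKM over the 6 libraries, whereas Cd3e stood at 0.733 FPKM. Markers listed at 0 in every library included Pax5, S100a8, S100a9, Mcpt4, Siglecf and Prg2. Summed epithelial markers were lower with DTA-1 without overlap (3.88 to 4.64 against 1.48 to 2.18 FPKM, mostly Epcam), as were T cell markers (10.6 to 11.7 against 8.40 to 9.76 FPKM, mostly Cd3g), while summed ILC2 markers were higher (6867 to 8081 against 10498 to 12102 FPKM). The cytokine genes Il13 (2326 ± 453 and 5422 ± 720.0 FPKM) and Il5 (2169 ± 531 and 3183 ± 747 FPKM) carried that sum, whereas 9 of the 14 ILC2 markers had a log2 fold change below 0. Of those 9, Il1rl1 (253 ± 53.2 and 182 ± 9.05 FPKM), Klrg1 (97.2 ± 17.6 and 34.1 ± 20.5 FPKM) and Arg1 (95.2 ± 11.8 and 69.3 ± 8.51 FPKM) were lower without overlap. Of the other 5, Il13 was higher without overlap. Over all tested genes, 10.5% were lower and 11.2% higher without overlap. At a limma adjusted p under 0.05, 0 of the 14 markers passed, against 0.0381% of all tested genes. Their part in the results below was not tested. The summed FPKM per library lay between 574195 and 606724, and the steps between low values corresponded to 18800000 to 20400000 fragments per library. In bulk RNA, fewer cells with a transcript and less transcript per cell cannot be told apart.

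Within the R4 subfamily, Rgs16 encodes a small RGS protein that acts on Gi and Gq subunits and is induced by activation in lymphocytes. It measured 3.27, 3.98 and 4.13 FPKM in isotype replicates 1, 2 and 3 and 7.66, 9.66 and 8.19 FPKM in DTA-1 replicates 1, 2 and 3. Each DTA-1 library lay above each isotype library, and the gap between the groups exceeded the range inside either of them. The log2 fold change, on the log2(FPKM + 1) scale used throughout, was 0.99 ± 0.14 (SE), with an unadjusted limma p of 8.62e-05. Adjusted over the 10501 tested genes the limma p was 0.0696, so Rgs16 did not pass the threshold of 0.05. At a threshold of 0.10 it was the only member called, where 0.419% of all tested genes were called higher.

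With each library left out in turn, the log2 fold change of Rgs16 lay between 0.90 and 1.05. It depended on the pseudocount, at 0.618 with 5 and 1.145 with 0.1 in place of 1. Library quality weights brought its limma adjusted p to 0.00627, in a fit that called 475 of the 10501 tested genes against 4 in the main fit. Over all alternative fits the limma adjusted p of Rgs16 lay between 0.00627 and 0.236. At the estimated depth the lowest library held about 145 Rgs16 fragments, a counting error of 8.30%. The antisense gene Gm28513 shares 236 of the 2339 exonic bases of Rgs16 and is not among the genes listed in the tables. Whether the values were counted by strand is not given in the sources used here, so reads from that stretch are uncertain.

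Rgs18 encodes an RGS protein best known from platelets and megakaryocytes. It measured 3.88, 9.50 and 5.32 FPKM in isotype replicates 1, 2 and 3, and 12.7, 9.11 and 9.27 FPKM in DTA-1 replicates 1, 2 and 3. Isotype replicate 2 lay among the DTA-1 values, and the other isotype libraries lay below all of them. Between the groups the log2 fold change was 0.71 ± 0.27 (limma adjusted p = 0.289). It was 1.02 without isotype replicate 2, with no overlap between the groups (19.1% of tested genes were higher without overlap in those 5 libraries), 0.46 without isotype replicate 1, and 0.32 when the replicates numbered 1 of both groups were left out. Rgs18 passed with library quality weights alone (limma adjusted p = 0.0358), a setting that called 475 of the 10501 tested genes against 4 in the main fit. The 5 platelet and megakaryocyte markers summed to 0.408 to 1.08 FPKM in the isotype libraries and 0.660 to 0.876 FPKM with DTA-1, so these defining markers were near 0 in both groups.

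Rgs1 encodes a regulator that dampens chemokine responses in lymphocytes, and it was by far the most abundant member. With the isotype its levels were 156, 385 and 310.2 FPKM in replicates 1, 2 and 3, and with DTA-1 they were 159.7, 209.7 and 245 FPKM. Isotype replicate 1 was the lowest library of all, and the other isotype libraries were the highest. For Rgs1 the log2 fold change was -0.39 ± 0.32 (limma adjusted p = 0.656). Without isotype replicate 1 it was -0.77 (limma adjusted p = 0.22), and without isotype replicate 2 it was -0.13. The isotype libraries had a coefficient of variation of 41.1%, and the counting error at the estimated depth was at most 0.937%.

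Rgs2, whose product is known for its preference for Gq subunits, stood at 2.04, 4.88 and 3.59 FPKM in isotype replicates 1, 2 and 3. With DTA-1 it stood at 1.95, 3.39 and 3.01 FPKM in replicates 1, 2 and 3. As for Rgs1, the library numbered 1 was the lowest in each group, and the ranges overlapped. Its log2 fold change was -0.22 ± 0.26 (limma adjusted p = 0.779), at -0.48 without isotype replicate 1 and -0.0010 without isotype replicate 2. Rgs3, a member with several long isoforms, measured 8.13, 5.00 and 5.61 FPKM with the isotype and 8.25, 5.34 and 4.67 FPKM with DTA-1, in replicate order. Here the library numbered 1 was the highest in each group, and the log2 fold change was -0.04 ± 0.22 (limma adjusted p = 0.959). The sign of that value turned when any of 3 libraries was left out, to 0.14 (isotype replicate 1), 0.023 (DTA-1 replicate 2) and 0.10 (DTA-1 replicate 3).

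**Figure D1:**
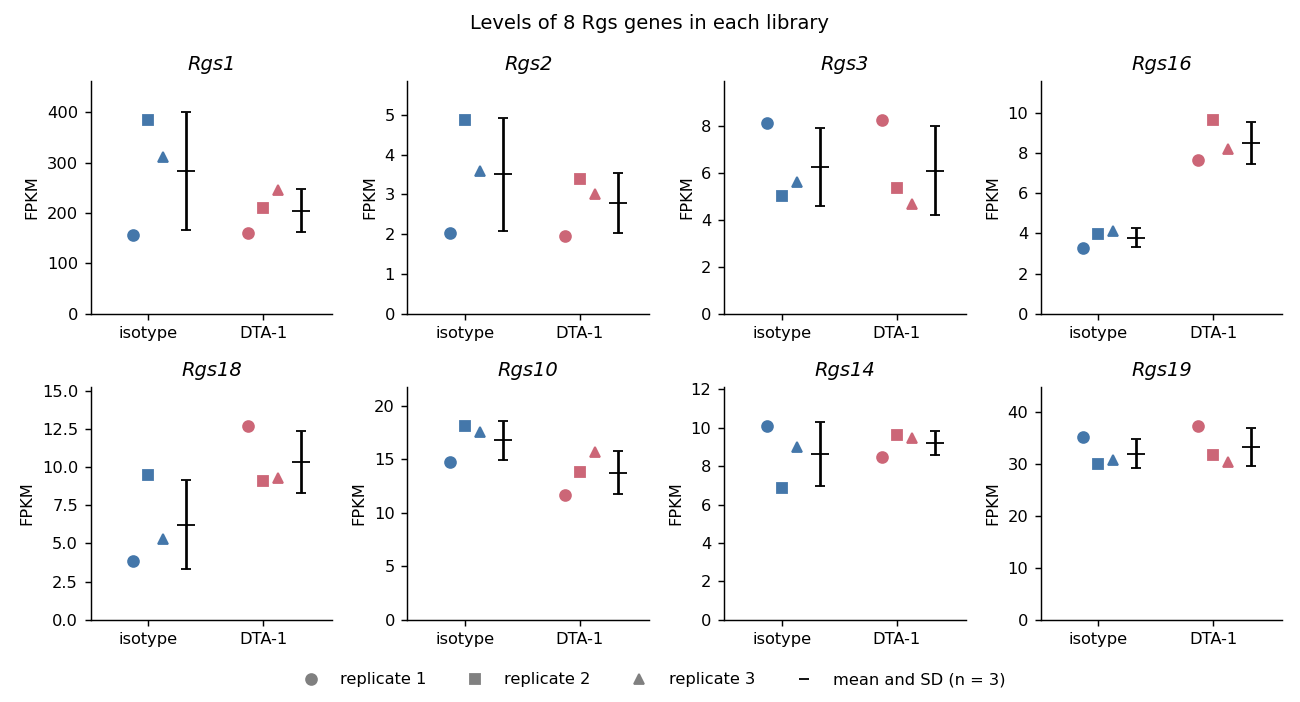
FPKM (vertical axes, each from 0) of the 8 Rgs genes in the 3 isotype and 3 DTA-1 libraries; symbols give the replicate, and the black bar the mean and SD. Rgs16 is the gene whose groups are apart, at 3.27 to 4.13 against 7.66 to 9.66 FPKM, while for Rgs1 and Rgs2 the replicate numbered 1 is lowest in both groups.

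The R12 and RZ members varied less. Rgs10, which encodes a small protein made largely of the RGS domain, measured 14.7, 18.1 and 17.5 FPKM in isotype replicates 1, 2 and 3 and 11.7, 13.8 and 15.7 FPKM in DTA-1 replicates 1, 2 and 3. Isotype replicate 1 lay inside the DTA-1 range and the other isotype libraries above it. For Rgs10 the log2 fold change was -0.27 ± 0.14 (limma adjusted p = 0.451), and -0.17 without DTA-1 replicate 1. Rgs14 encodes a scaffold that also binds inactive Gi subunits through a GoLoco motif. It measured 8.67 ± 1.67 and 9.21 ± 0.625 FPKM (log2 fold change 0.09 ± 0.15, limma adjusted p = 0.847), and -0.050 without isotype replicate 2.

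Rgs19, which encodes the G alpha interacting protein GAIP, was the steadiest member. It lay at 35.2, 29.9 and 30.8 FPKM with the isotype and at 37.3, 31.8 and 30.4 FPKM with DTA-1, in replicate order, so the groups covered nearly the same range. The log2 fold change was 0.05 ± 0.13 (limma adjusted p = 0.903), and -0.035 without DTA-1 replicate 1. Its SD over the 6 libraries on the log2 scale was 0.126, larger than that of 20.4% of the tested genes. The corresponding shares were 96.6% for Rgs16, 96.4% for Rgs18 and 95.6% for Rgs1, so these 3 ranked among the more variable genes of the fit.

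**Figure D2:**
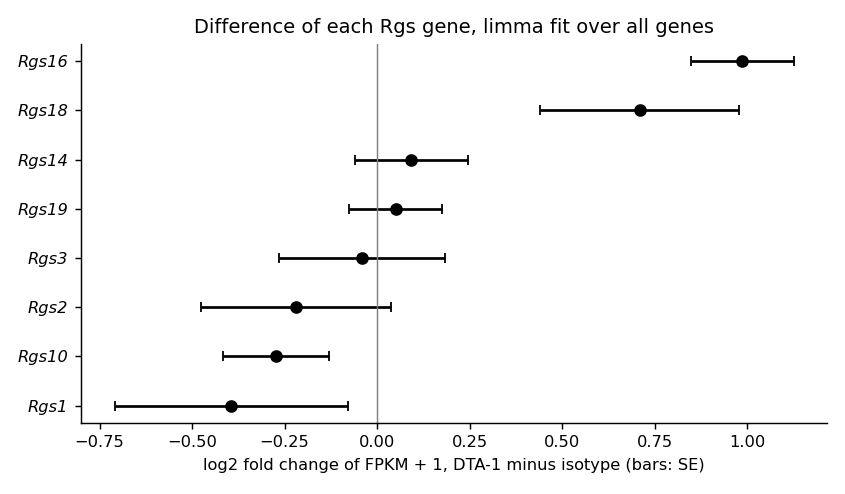
Log2 fold change of FPKM + 1 (horizontal axis, DTA-1 minus isotype) for each of the 8 Rgs genes from the limma fit over all genes, with bars for the SE. Rgs16 (0.99) and Rgs18 (0.71) lie highest, Rgs1 (-0.39) lowest, and none passed the threshold.

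All 8 members passed the filter of 1 FPKM in at least 3 libraries. At an unadjusted p under 0.05, 2 members were higher (Rgs16 and Rgs18) and 0 lower, where 6.22% of all tested genes were higher and 7.73% lower. Non-overlapping groups in 1 of 8 members, against 21.6% of all tested genes, were not above the background. The median log2 fold change of the 8 was 0.005 beside 0.014 over all tested genes, with 4 members above 0 and 4 below.

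Single libraries bore on several members at once. Isotype replicate 1 was the lowest isotype library for Rgs1, Rgs2, Rgs10, Rgs16 and Rgs18 and the highest for Rgs3, Rgs14 and Rgs19. Its level relative to the mean of isotype replicates 2 and 3 was 0.449 for Rgs1, 0.48 for Rgs2 and 0.524 for Rgs18, against 1.53 for Rgs3. Without it, Rgs1, Rgs2 and Rgs10 were each lower with DTA-1 without overlap, 3 of 8 members, where 14.8% of the tested genes were lower without overlap in those 5 libraries. None of the 3 passed the limma threshold there. Isotype replicate 1 stood farthest from the other libraries of its group for 6 of the 8 members, and for 33.5% of all tested genes. Isotype replicate 2 did so for 2 members and for 44.8% of all tested genes. DTA-1 replicate 1 stood farthest from the other libraries of its group for 7 of the 8 members, and for 52.2% of all tested genes.

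The make-up of the family was dominated by a single gene. Rgs1 held 68.0 ± 9.77% of the summed FPKM of the numbered Rgs genes with the isotype and 60.3 ± 6.22% with DTA-1. Rgs12, an R12 gene outside the 8 members, was second, at 42.8 ± 5.80 and 46.8 ± 2.25 FPKM. Rgs16 accounted for 0.784% to 1.19% of the sum in the isotype libraries and 2.21% to 2.83% with DTA-1. Rgs18 accounted for 1.22% to 1.87% and 2.50% to 4.26%. As shares of the family, then, both genes were higher in every DTA-1 library than in every isotype library, with a denominator set largely by Rgs1. In FPKM the groups of Rgs18 overlapped. How often such shares or sums separate the groups for other gene families was not computed. Summed over the 7 members other than Rgs1, the level was 76.0 to 78.3 FPKM in the isotype libraries and 80.7 to 88.1 FPKM with DTA-1. Within that sum the means of Rgs14, Rgs16, Rgs18 and Rgs19 were higher with DTA-1, and those of Rgs2, Rgs3 and Rgs10 were lower.

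In order of mean level per length, the isotype libraries gave Rgs1, Rgs12, Rgs19, Rgs10, Rgs14, Rgs3, Rgs18, Rgs16 and Rgs2. The ranges of neighbours did not overlap from Rgs1 down to the step from Rgs10 to Rgs14, and from Rgs14 downwards they overlapped. With DTA-1 the order was Rgs1, Rgs12, Rgs19, Rgs10, Rgs18, Rgs14, Rgs16, Rgs3 and Rgs2. There the ranges of the neighbours from Rgs10 to Rgs3 overlapped, and Rgs2 lay below Rgs3 in each library. Of the 21 numbered Rgs genes in the tables, 10 reached 1 FPKM in at least 3 libraries, the tenth being Rgs11 at 1.22 ± 0.683 and 0.963 ± 0.215 FPKM. Another 6 (Rgs4, Rgs5, Rgs7, Rgs13, Rgs21 and Rgs22) were listed at 0 in every library, and 5 (Rgs6, Rgs8, Rgs9, Rgs17 and Rgs20) stayed under 1 FPKM.

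**Figure D3:**
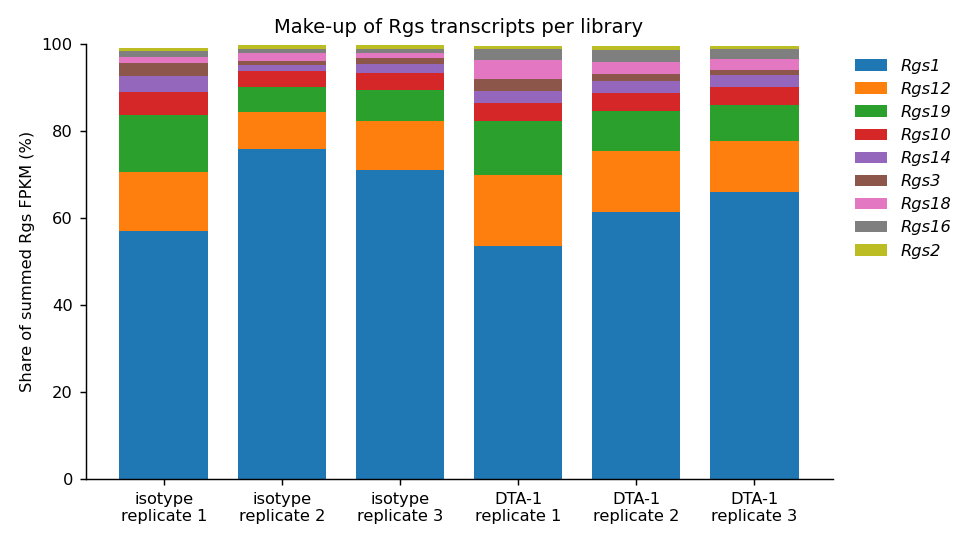
Share of the summed FPKM of all numbered Rgs genes (vertical axis, percent) held by the 9 most abundant ones in each library. Rgs1 takes 53.6% to 75.9%, and the bands of Rgs16 and Rgs18 are wider in each DTA-1 library than in each isotype library.

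Rgs1, Rgs2, Rgs16 and Rgs18 lie on chromosome 1. GENCODE places Rgs2 (143999338 to 144004161), Rgs1 (144242296 to 144249242) and Rgs18 (144752683 to 144775435) on the minus strand of GRCm38, the assembly of mm10. Together with Rgs13 and Rgs21 they form a run of 776 kb with 5 protein-coding genes, all of them Rgs genes. The start of Rgs16 lies 9491 kb from that of Rgs1, and the gene (153740349 to 153745468, plus strand) is next to Rgs8. The others are on chromosome 4 (Rgs3, 62559847 to 62704001), chromosome 7 (Rgs10, 128373621 to 128418758), chromosome 13 (Rgs14, 55369732 to 55384687) and chromosome 2 (Rgs19, 181688419 to 181693977). With a single value for each gene, the isoforms of Rgs3, Rgs10, Rgs19 and the others are not told apart.

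Inside the run, neighbouring genes differed widely in level. Rgs1 stood at 284 FPKM in the isotype mean, Rgs2, whose start lies 245 kb away, at 3.50 FPKM, and Rgs18, 526 kb away, at 6.23 FPKM. Rgs13 and Rgs21, which lie between them, were listed at 0. Relative to Rgs1, Rgs2 measured 1.30, 1.27 and 1.16 FPKM per 100 FPKM of Rgs1 with the isotype and 1.22, 1.61 and 1.23 with DTA-1, in replicate order and with overlap. Rgs18 measured 2.49, 2.47 and 1.71 FPKM per 100 FPKM of Rgs1 with the isotype and 7.94, 4.35 and 3.79 with DTA-1, without overlap. The exact permutation test over the 6 libraries (2-sided, n = 3 per group) gave p = 0.7 for the first ratio and p = 0.1, the smallest it can give, for the second. Both ratios were chosen after the values had been seen, so the second p only restates the lack of overlap. The same permutation test gave p = 0.1 for Rgs16 in FPKM and p = 0.5 for Rgs16 over Rgs18. How often a ratio of 2 genes separates the groups was not computed.

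**Figure D4:**
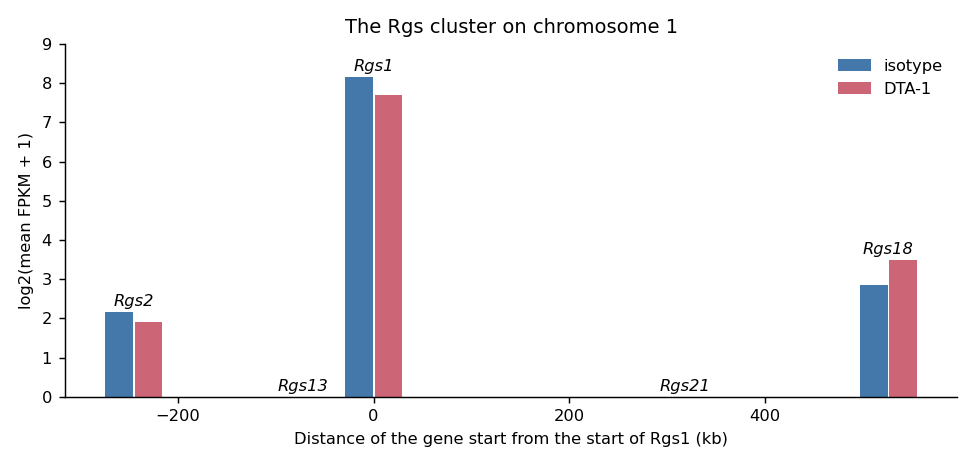
Mean level of the 5 Rgs genes of the chromosome 1 run in each group (vertical axis, log2 of mean FPKM + 1) against the distance of each gene's start from that of Rgs1 in kb. Rgs13 and Rgs21 are at 0, Rgs1 and Rgs2 are lower in the DTA-1 mean, and Rgs18 is higher.

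The genes most like Rgs16 and Rgs18, the most variable members, were sought among 8070 tested genes with a mean of at least 5 FPKM. Members, small RNAs and genes named Gm with a number had been left out of these. Likeness was the root mean square difference of centred log2(FPKM + 1) values over the 6 libraries, a description with no test. Nearest to Rgs16 were Egr1, an early growth response factor gene (0.126), Fryl (0.126) and Vegfc, which encodes a lymphatic growth factor (0.138). Egr1, for instance, measured 4.74, 4.37 and 5.48 FPKM with the isotype and 8.12, 12.1 and 10.4 FPKM with DTA-1. Nearest to Rgs18 were Tnfrsf9, which encodes the costimulatory receptor 4-1BB (0.109), the integrin gene Itgb1 (0.117) and the kinase gene Jak2 (0.129). Tnfrsf9 measured 11.7, 23.1 and 16.3 FPKM with the isotype and 30.2, 23.2 and 21.7 FPKM with DTA-1. Isotype replicate 2 was its highest isotype library and DTA-1 replicate 1 the highest of all. That order is shared with Rgs18 by the way the gene was chosen.

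Among the genes of heterotrimeric G protein subunits, whether or not the 8 RGS proteins act on them, no gene passed the test. Gnai2, the main Gi alpha subunit gene of lymphocytes, measured 287 ± 2.04 and 279.8 ± 6.29 FPKM, and Gnai3 116 ± 27.7 and 103 ± 8.76 FPKM. Gnas, the Gs alpha gene, stood at 397 ± 20.8 and 395 ± 34.9 FPKM, and Gna13 at 55.4 ± 4.09 and 46.3 ± 7.72 FPKM. Of 11 tested alpha subunit genes, 0 passed limma over all genes and 0 had an unadjusted p under 0.05, with a median log2 fold change of -0.038. Among 9 tested beta and gamma subunit genes 0 passed, with 1 higher (Gng5) and 1 lower (Gngt2) at an unadjusted p under 0.05. Over all tested genes, 6.22% were higher and 7.73% lower at that p. Gngt2 measured 5.30 ± 2.85 and 1.49 ± 0.493 FPKM, and Gng5 144 ± 21.6 and 182 ± 12.2 FPKM.

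Other regulators and the machinery of receptor desensitisation gave no call either. Of 10 tested genes in the fixed list of further regulators, 0 passed, and Gpsm2 and Axin2 were lower at an unadjusted p under 0.05. Over all tested genes, 7.73% were lower at that p. The list was fixed by name and does not show that each of its genes acts on G proteins. Gpsm2, which encodes a GoLoco protein that positions the mitotic spindle, measured 8.30 ± 1.98 and 4.34 ± 0.184 FPKM without overlap. For the 6 tested genes of receptor kinases and arrestins, 0 passed and 0 had an unadjusted p under 0.05. Adrbk1, the gene of G protein-coupled receptor kinase 2, stood at 204 ± 17.0 and 206 ± 4.31 FPKM, and Arrb2, an arrestin gene, at 35.0 ± 10.2 and 41.5 ± 12.2 FPKM.

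Downstream, Pik3r5 had the smallest p of the listed pathway genes. It encodes p101, the regulatory subunit through which beta-gamma pairs engage the kinase PI3K gamma. It measured 4.56, 5.50 and 6.69 FPKM in isotype replicates 1, 2 and 3 and 18.2, 13.0 and 11.0 FPKM in DTA-1 replicates 1, 2 and 3, all above the isotype range. The log2 fold change was 1.18 ± 0.20 and the limma adjusted p 0.0817, so it did not pass. Pik3cg, the catalytic subunit gene, measured 51.9 ± 4.92 and 43.9 ± 11.4 FPKM. Of 12 tested effector genes 0 passed and 1, Pik3r5, had an unadjusted p under 0.05. Over all tested genes, 6.22% were higher and 7.73% lower at that p. Among 13 tested genes of cAMP degradation and response 0 passed and 1 was higher at an unadjusted p under 0.05: Pde7a, a cAMP phosphodiesterase gene, at 14.2 ± 4.28 and 23.1 ± 0.246 FPKM.

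Receptors that couple to these G proteins included values on both sides. Of 28 tested receptor genes 0 passed, with 3 higher (Ptger4, Cysltr2 and S1pr2) and 4 lower (S1pr1, Cysltr1, Ccr1 and Cxcr4) at an unadjusted p under 0.05, and a median of 0.063. S1pr1, the receptor for exit from tissue towards sphingosine 1-phosphate, measured 37.8 ± 4.62 and 22.7 ± 6.81 FPKM, and S1pr2, which restrains migration, 9.40 ± 1.07 and 15.6 ± 1.62 FPKM. Ptger4, a prostaglandin E2 receptor gene, measured 14.3 ± 2.58 and 33.2 ± 12.4 FPKM. The most abundant receptor genes, Cxcr6 and Ccr4, stood at 228 ± 44.6 and 187 ± 34.8 FPKM and at 115 to 143 and 143 to 175 FPKM. Over all 8 lists, 91 of the 145 fixed genes were tested and 0 passed limma over all genes. At an unadjusted p under 0.05, 6 were higher and 7 lower, where the shares over all tested genes were 6.22% and 7.73%. Pik3r5, Ptger4, S1pr1, S1pr2 and the others below the most abundant genes of their lists were named after their values had been seen.

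**Figure D5:**
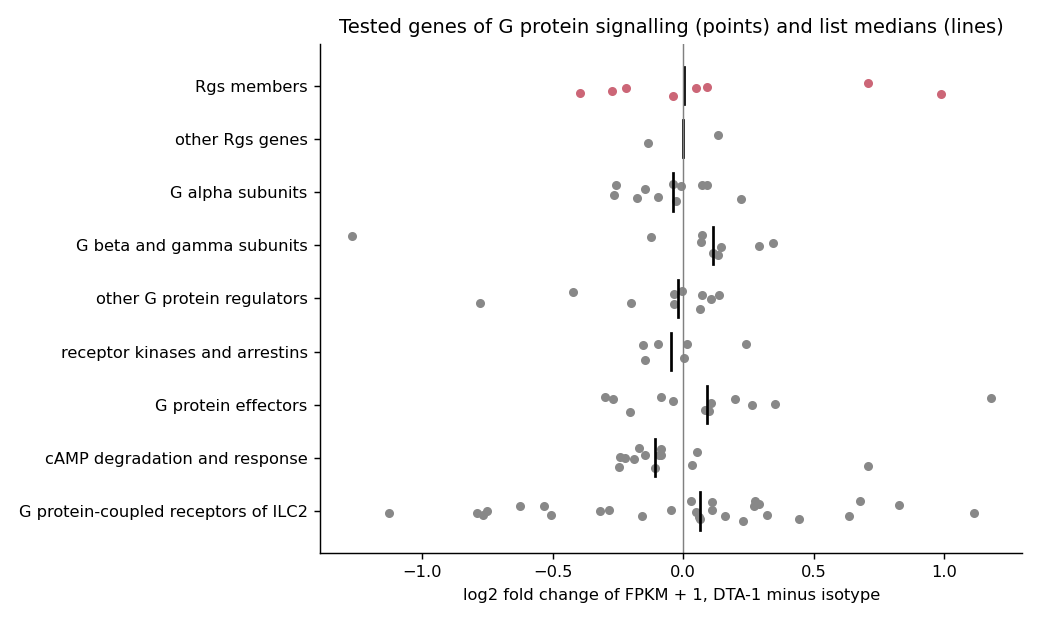
Log2 fold change of FPKM + 1 (horizontal axis, DTA-1 minus isotype) of each tested gene, by list, with the list median as a line; the 8 Rgs members are in red. List medians lie between -0.109 and 0.116, and the spread is widest among the receptors.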

How the data were processed

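RNA of 6 libraries (1.3 ug each) was made into directional libraries, per the labels' protocols. TopHat and mm10 are named in the submitters' processing notes; aligner version, quantifier, annotation and strand use: not given in the sources used here. The deposited tables hold 1 value per gene, taken as FPKM because the authors' values are not whole and step at low levels with inverse transcript length. Groups and replicate numbers came from the titles; the treatment tags of replicates 2 and 3 disagree with them (IgG3b, IgG4b, DTA-2, DTA-3) and were left aside.

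The test ran on log2(FPKM + 1) for the 10501 genes that reached 1 FPKM in 3 or more libraries, using limma 3.58.1 and R 4.3.3 (trend and robust moderation, group as the only term, 2-sided, Benjamini-Hochberg adjustment over all tested genes, threshold 0.05). Fold changes of low genes are understated on this scale. Estimated fragments used the longest coding transcript of GENCODE M21 (GRCm38) and cover counting error only. Members and lists were chosen with earlier results of these data known. Named genes were all 8 members, genes past the threshold or the 4 most abundant of each list, and exceptions are marked in the text. The fit was tested on simulated data with set changes and noise drawn independently for each gene and library. That test does not cover deviations shared between genes, so it does not show how the p-values behave here. Alternatives covered pseudocount, filter, scaling, moderation, weights, replicate block, threshold and left-out libraries. Count-based tests were not run, since the values are not counts. Figures used matplotlib 3.10.9 in Python 3.11.15.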

Additional observations from a re-analysis of the deposited data

How the results depend on the processing

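Of 143 member values under alternatives, 134 kept their direction and their side of the threshold. Those at a threshold of 0.10 are the values of the main fit, so their direction could not change. Since 0 members passed in the main fit, keeping the side of the threshold meant staying uncalled. Signs reversed with a library left out for Rgs3 (isotype replicate 1, 0.138; DTA-1 replicate 2, 0.023; DTA-1 replicate 3, 0.104), Rgs14 (isotype replicate 2, -0.050) and Rgs19 (DTA-1 replicate 1, -0.035). Over the left-out libraries Rgs3 ranged from -0.249 to 0.138, Rgs14 from -0.050 to 0.203 and Rgs19 from -0.035 to 0.120. Rgs2 was not tested with a minimum mean of 5 FPKM. Members called higher numbered 2 with library quality weights (Rgs16 and Rgs18), 1 with the replicate block and 1 at a threshold of 0.10 (Rgs16 in both). With any library left out, 0 were called higher, and 0 were called lower in each fit. Over all 10501 tested genes the weights, the block and the threshold of 0.10 called 161, 59 and 44 higher, against 3 in the main fit. Listed pathway genes called higher and lower numbered 5 and 2 with quality weights, 1 and 2 with the replicate block, and 1 higher at 0.10, against 0 otherwise.

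Over all genes, 3 were higher and 1 lower. These counts were 161 and 314 with quality weights, 59 and 126 with the replicate block, 44 and 45 at a threshold of 0.10, and 5 and 2 with quantile normalization. They were 1 higher without a filter, 2 lower with equal totals, and 1 and 0 with both replicates numbered 1 left out, chosen after seeing the data. With each library left out, 0 to 3 were higher and 0 to 1 lower. Members without overlap then numbered 1 to 2 higher and 0 to 3 lower. The 2 higher came without isotype replicate 2, where 19.1% of tested genes were higher without overlap. The 3 lower came without isotype replicate 1, where 14.8% were lower without overlap. For the other left-out libraries that share is not given here. The cause of these differences between fits was not tested.

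The replicate numbers were not taken to pair the samples. Deviations from the group mean in same-numbered libraries correlated at 0.393, -0.101 and -0.129, in order of number. Isotype replicate 2 correlated best with DTA-1 replicate 3 (0.485), and isotype replicate 3 with DTA-1 replicate 2 (0.385). The remaining pairs of different numbers gave -0.420 to -0.141. Whether libraries match under other numbers is not given by the labels and was not tested. With the replicate number as a block, Rgs16 had a limma adjusted p of 0.0327, in a fit that called 185 of the 10501 tested genes. Depth limits Rgs2 most, with about 114 fragments in its lowest library (counting error 9.35%).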
